A study of Homo sapiens with 2 samples.

Results

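The 9 chemokine genes CCL18, CCL23, CCL2, CCL1, CCL3, CCL4, CCL5, CCL7 and CXCL8, which mast cells or other leukocytes are known to express, were described in the CD2-positive and the CD2-negative subclone of HMC1. HMC1, an established human cell line, comes from a mast cell leukaemia. Its cells had been sorted by flow cytometry with an antibody against the adhesion receptor CD2, and total RNA of each subclone was hybridised to 1 Affymetrix U133 Plus 2.0 array, so each group held 1 sample. Neither subclone carries a treatment other than the sort in the labels, and the form of HMC1 (lines with different KIT mutations exist) is not given in the sources. The members were taken by gene symbol: of 54675 probe sets (groups of short probes read as 1 value), 14 were annotated to a member, 13 of them to that gene alone and 1 to CCL3, CCL3L1 and CCL3L3 together. The 9 genes had been picked from earlier results on these same intensities and differences, and there were no replicates, so the values are a description without a test, a p-value or an error between cultures.

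Chemokines are small secreted proteins that bind G protein-coupled receptors on leukocytes and direct their migration, and they are held on cell surfaces by glycosaminoglycans. The CC chemokines mainly attract monocytes, lymphocytes, eosinophils and basophils, while CXCL8, a CXC chemokine, attracts neutrophils. Mast cells release chemokines after stimulation through the IgE receptor, KIT or cytokines, and NF-kB and AP-1 are known activators of many chemokine genes.

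The promoter letters of the members are shown first, as background. They are those of the reference genome and were not read in either subclone, and a link to the differences was not tested. The longer stretch is given for CCL18 and CCL23, neighbouring protein-coding genes on chromosome 17. RefSeq sequences (GRCh38.p14) were matched for 6 of the 9 genes. CCL2, CCL4 and CCL5 were not matched. The 250 bases before the start of CCL18 (chr17:36064022-36064271, plus strand) and of CCL23 (chr17:36017973-36018222, minus strand) follow, 5′ to 3′, with the TATA box motif TATAAA in capitals.
CCL18: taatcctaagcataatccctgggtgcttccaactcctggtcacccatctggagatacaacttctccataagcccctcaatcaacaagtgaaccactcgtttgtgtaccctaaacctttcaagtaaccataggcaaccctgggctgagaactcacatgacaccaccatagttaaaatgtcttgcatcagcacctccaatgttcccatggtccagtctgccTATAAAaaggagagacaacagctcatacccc
CCL23: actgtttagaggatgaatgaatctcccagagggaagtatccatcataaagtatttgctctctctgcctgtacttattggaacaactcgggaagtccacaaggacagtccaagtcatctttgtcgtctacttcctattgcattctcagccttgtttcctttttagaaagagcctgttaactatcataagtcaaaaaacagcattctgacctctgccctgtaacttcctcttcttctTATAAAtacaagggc
The 45 bases before the start of each matched member follow in the same notation, to set the core promoters beside each other. They are from chr17:36064227-36064271 (CCL18, plus strand), chr17:36017973-36018017 (CCL23, minus), chr17:36090144-36090188 (CCL3, minus), chr17:34270176-34270220 (CCL7, plus), chr4:73740524-73740568 (CXCL8, plus) and chr17:34363234-34363278 (CCL1, minus).
CCL18: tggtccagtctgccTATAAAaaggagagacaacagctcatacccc
CCL23: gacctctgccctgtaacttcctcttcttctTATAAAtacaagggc
CCL3: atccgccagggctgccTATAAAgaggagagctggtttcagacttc
CCL7: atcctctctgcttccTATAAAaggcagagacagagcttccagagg
CXCL8: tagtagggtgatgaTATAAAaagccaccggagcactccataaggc
CCL1: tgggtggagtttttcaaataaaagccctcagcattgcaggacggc

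The motif TATAAA stood on the gene's strand within these 45 bases in CCL18, CCL23, CCL3, CCL7 and CXCL8, and was not among the letters of CCL1. Of 35114 promoters searched, 2.53% held it there. It began 31 bases before the start in CCL18 and CXCL8, 30 in CCL7, 29 in CCL3 and 15 in CCL23. Over 40 bases laid on the TATA box, CCL18 had 25 identical bases with CCL7, 23 with CCL3 and 19 with CXCL8. CCL3 had 19 with CCL7 and 13 with CXCL8, and CCL7 had 17 with CXCL8. The 6 bases of the motif itself are identical by construction. The TATA box of CCL23 lay too close to the start for this comparison.

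Other motifs were searched on both strands of the 250 bases. The AP-1 motif TGANTCA was found in CCL7 and CXCL8 and in 6.57% of all promoters. The NF-kB consensus motif, in 9.96% of all promoters, matched CCL1 on both strands at positions that overlap. A second NF-kB motif, GGANTTTCC, was found in CXCL8 and in 1.45% of all promoters. The motif CATGTG, a form of the E-box that MITF can bind, was found in CCL18 and CCL1 and in 9.42% of all promoters. The letters AGATAA, bound by GATA factors, were found in CCL1 and in 9.17% of all promoters. The STAT motif TTCNNNGAA was found in CCL7 (6.57% of all promoters) and the motif TTGCNNAA of C/EBP factors in CCL3 (9.05%). CCL23 held none of these letters besides the TATA box. These are matches of letters in a window and not binding sites.

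Intensities were RMA values in linear units and whole numbers. Genes entered the comparison if at least 1 array read 64 or more (log2 of 6), the probe set with the highest mean standing for the gene, and were called if the arrays differed at least 2-fold. Of the 3564 genes compared, 43 were called higher in the CD2-positive subclone (1.21%) and 27 lower (0.758%). Centring on the hybridisation controls, bacterial and phage transcripts added to the labelled sample, moved the median log2 difference of the compared genes from -0.05 to 0.14 and the calls to 71 higher and 14 lower. Control probe sets for Bacillus RNA, absent from human cells, read 1 to 4 on both arrays. The only spread that could be had was that between probe sets of a gene within the arrays, an SD of 0.13 on the log2 scale per probe set over 937 genes. It covers probe behaviour, not cultures or hybridisations. CD2 itself read 219 on the CD2-positive and 13 on the CD2-negative array. Since probes differ in affinity, readings of different probe sets give no order of transcript amounts. In RNA of a whole culture, fewer cells with a transcript and less transcript per cell cannot be told apart.

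Among the 9 genes, CCL18 and CCL23 were called higher in the CD2-positive subclone and none was called lower, with 4 members compared. The background shares are the 1.21% and 0.758% given above. Since the members were chosen with these differences known, nothing is read from that contrast. The shared CCL3 probe set and CCL2 were higher by less than 2-fold, CCL1 was lower by less than 2-fold, CCL4 and CCL5 lay below the floor, and CCL7 and CXCL8 were at or next to the level of the Bacillus probe sets. The median log2 difference was 1.12 over the 4 compared members and -0.05 over all compared genes. CCL18 passed the floor only through the CD2-positive array. The members' median was 0.53 at a floor of log2 5 and 0.37 over 8 members without a floor.

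CCL18, which attracts naive T cells and is known mainly from macrophages and dendritic cells, was read by 2 probe sets. One read 198 on the CD2-positive and 52 on the CD2-negative array. The other read 185 and 54. Both values of the CD2-negative subclone lay below the floor of 64 and well above the Bacillus probe sets. The folds were 3.81 and 3.43, with log2 differences of 1.93 and 1.78, and CCL18 ranked 9 from the top of the 3564 genes. Rounding to whole numbers leaves the first between 1.91 and 1.95 and the second between 1.76 and 1.79.

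CCL23, a ligand of CCR1 that attracts monocytes and resting T cells, was also read by 2 probe sets. The brighter read 307 on the CD2-positive and 102 on the CD2-negative array, a 3.01-fold difference. The dimmer read 136 and 48, a 2.83-fold difference. Both probe sets thus showed the same direction and nearly the same size, with a log2 difference of 1.59 for the brighter, and the gene ranked 15 from the top. The gap between the differences of its 2 probe sets was 0.09, and that between the CCL18 probe sets 0.15. The brighter CCL18 and CCL23 probe sets were 0.34 apart, and the nearest pair of the 2 genes 0.19.

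CCL2, the monocyte chemoattractant that acts through CCR2, read 1009 on the CD2-positive and 645 on the CD2-negative array. The fold was 1.56 (log2 difference 0.65), inside the middle 95% of the compared genes, which ran from -0.68 to 0.70. CCL2 ranked 114 from the top, and 5.81% of the compared genes had a log2 difference of 0.5 or higher. Both subclones read far above the floor.

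CCL1, a ligand of CCR8 on T helper and regulatory T cells, was the member that differed in the other direction. It read 364 on the CD2-positive and 519 on the CD2-negative array, 1.43-fold lower in the CD2-positive subclone (log2 difference -0.51). That value also lay inside the middle 95%, and 5.86% of the compared genes had a difference of -0.5 or lower. The sign stayed negative under every scaling tried, with -0.33 as the value nearest 0. A gap between members does not depend on a constant shift of an array: the ratio of the CCL18 to the CCL1 signal was 5.43-fold larger in the CD2-positive subclone with the brighter CCL18 probe set, that of CCL23 to CCL1 4.29-fold and that of CCL2 to CCL1 2.23-fold.

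CCL3 and CCL4 encode the macrophage inflammatory proteins 1-alpha and 1-beta, which attract monocytes and T cells. The probe set shared by CCL3, CCL3L1 and CCL3L3 read 120 on the CD2-positive and 66 on the CD2-negative array. Its log2 difference was 0.86, a 1.82-fold change that cannot be assigned to 1 of these near-identical genes. It lay just outside the 2-fold rule and passed it (1.04) when centred on the hybridisation controls. CCL4 read 32 and 24 (log2 difference 0.42), below the floor in both subclones.

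CCL5, known as RANTES, attracts T cells, eosinophils and basophils. Its 3 probe sets read 49 and 46, 36 and 27, and 28 and 24 on the CD2-positive and CD2-negative arrays, respectively. The CD2-positive array was slightly higher in all 3, with log2 differences from 0.09 to 0.42. For the 8117 named probe sets of this range, with the higher array from 16 to 63, a difference of at least 2-fold higher was seen in 1.33%. None of the CCL4 and CCL5 probe sets reached it.

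CCL7, a monocyte chemoattractant related to CCL2, read 5 and 4, and rounding alone leaves its log2 difference anywhere from 0.00 to 0.65. The probe sets of CXCL8, the neutrophil attractant interleukin 8, read 4 on both arrays and 2 on both arrays. CXCL8 did not read above the Bacillus probe sets in either subclone, and a difference could not be measured there.

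**Figure D1:**
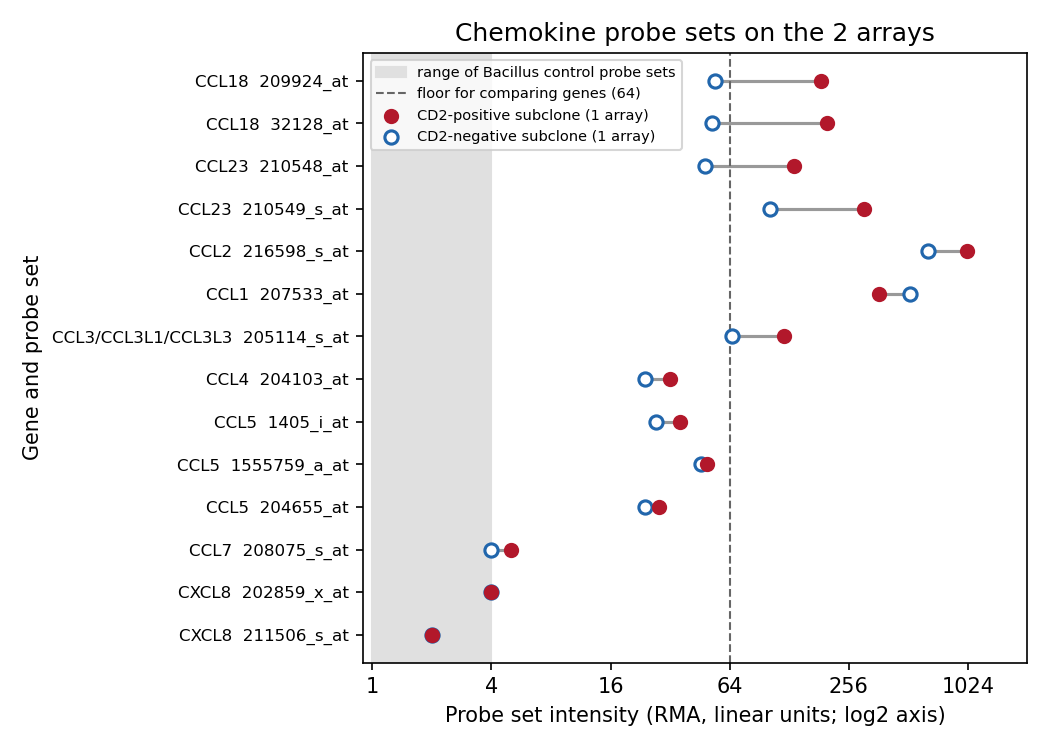
Intensity of the 14 chemokine probe sets (log2 axis, linear RMA units) on the CD2-positive array (filled red) and the CD2-negative array (open blue), with 1 array per subclone. The grey band is the range of the Bacillus probe sets, 1 to 4, and the dashed line is the floor of 64. The CCL18 probe sets cross the floor from 52 and 54 to 198 and 185, whereas the CXCL8 symbols coincide within the grey band.

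**Figure D2:**
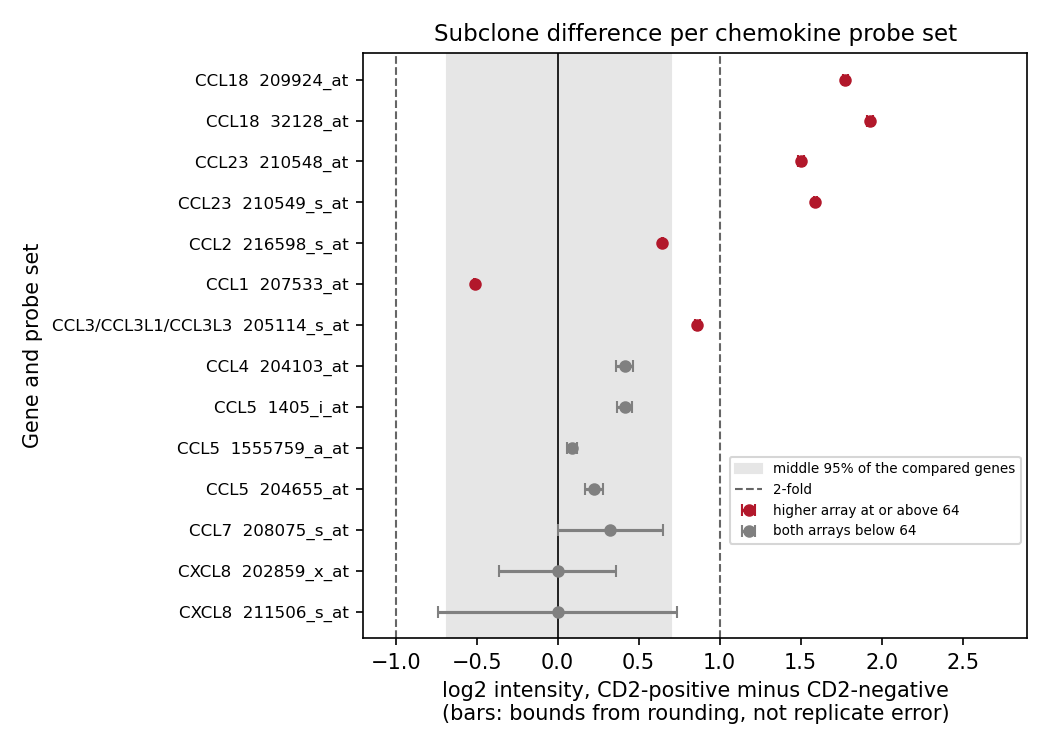
Log2 difference (CD2-positive minus CD2-negative) of each chemokine probe set, with bars for the bounds that rounding to whole numbers leaves and not for replicate error. The 4 probe sets of CCL18 and CCL23 lie beyond the 2-fold line, the shared CCL3 probe set at 0.86 lies between it and the grey band (middle 95% of compared genes, -0.68 to 0.70), and CCL1 is the one at a negative value.

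Most members lie in 2 runs of CC chemokine genes on chromosome 17, and CXCL8 lies in a run of CXC chemokine genes on chromosome 4. In the run from CCL5 to CCL4, CCL23, CCL18, CCL3 and CCL4 follow each other among protein-coding genes. The measured genes outside the set there (C17orf50, TAF15, HEATR9, RDM1, LYZL6 and CCL16) all lay below the floor, TAF15 for example at 30 and 29. CCL14 and CCL15 were read only in probe sets shared with a read-through transcript, at 7 and 5 and at 2 and 2. In the run from CCL2 to CCL1, CCL11 (3 and 3) and CCL8 (2 and 2) between the members were at the Bacillus level. The only measured non-member above the floor next to that run was ZNF830, at 83 on both arrays. TMEM132E, the protein-coding gene next to CCL1, read 43 and 14, below the floor, with a log2 difference of 1.62. It thus differed in the opposite direction from CCL1. Around CXCL8, the 13 measured non-members read from 1 to 5 on both arrays.

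**Figure D3:**
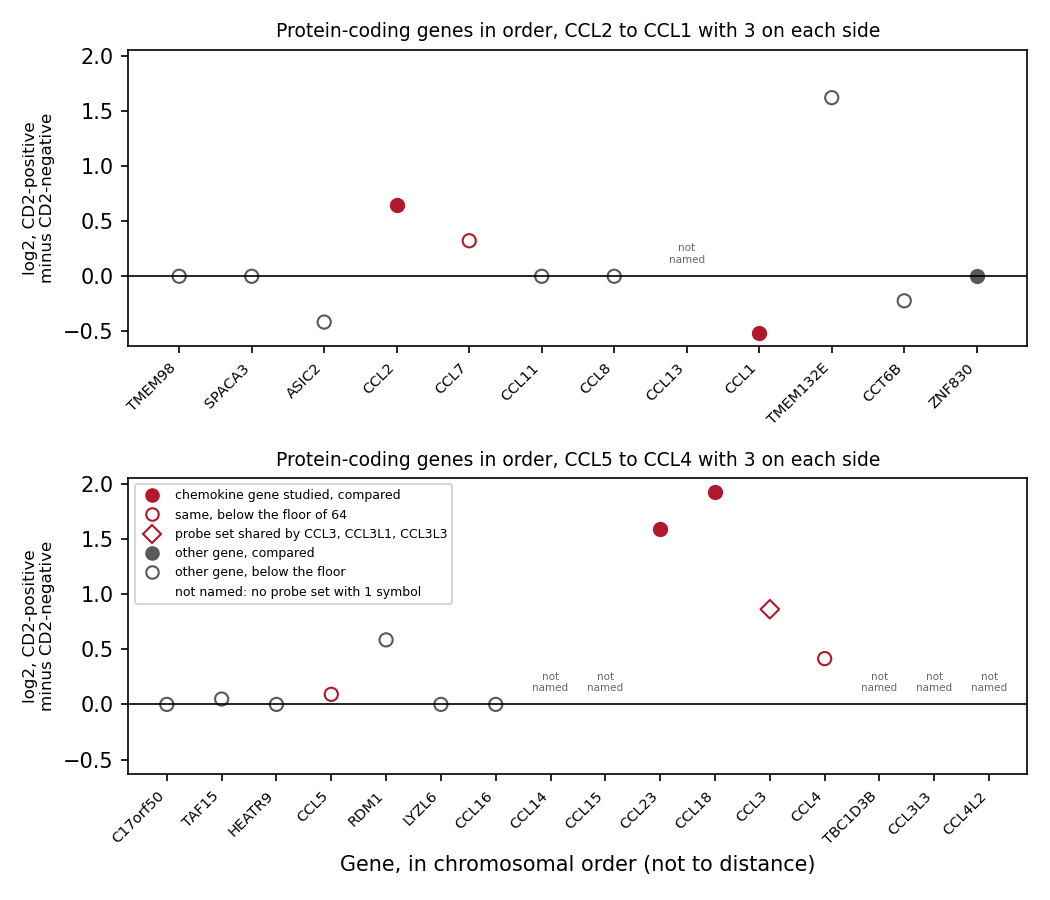
Log2 difference (CD2-positive minus CD2-negative) of protein-coding genes in chromosomal order around the 2 runs of CC chemokine genes on chromosome 17, with genes spaced evenly. Filled symbols are genes with the higher array at 64 or more. CCL23 (1.59) and CCL18 (1.93) stand side by side above the others of their run, and in the upper panel CCL2 (0.65) and CCL1 (-0.51) lie on opposite sides of 0.

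The other chemokine ligands formed a list of 39 genes, of which 31 had a probe set of their own. None reached the floor, and 25 were at or below 4 on both arrays. Of all 19775 genes with a probe set of their own, 3564 reached the floor and 7924 were at or below 4 on both arrays. The probe sets of CXCL12, the ligand of CXCR4, read 50 and 32, and 10 and 8, on the CD2-positive and CD2-negative arrays. CXCL16 read 17 on both. Both genes fall outside the rule for named genes and were chosen after their values were seen.

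Of 25 chemokine receptor genes, 23 had a probe set of their own and 17 were at or below 4 on both arrays. Over all genes this was 7924 of 19775. CXCR4, the receptor of CXCL12, was the only one above the floor. Its probe sets read 325 and 325, 192 and 181, and 176 and 176, so none differed by more than 0.09 on the log2 scale. Receptors of the members read at the Bacillus level: CCR1 (4 and 3), CCR2 (2 and 2), CCR8 (2 and 2) and PITPNM3, a reported CCL18 receptor (2 and 2). CXCR2, a receptor of CXCL8, read 15 and 25, and CXCR1, the other one, 8 and 6. SRGN, which encodes the proteoglycan core serglycin of mast cell granules, was the one of 7 glycosaminoglycan carriers above the floor and read 1889 and 1862.

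Of 30 regulators that act on chemokine genes, 29 were measured and 16 were compared. Of these 7 had a positive and 9 a negative difference, none of them 2-fold, with a median of -0.09. Over all 3564 compared genes, 1494 were positive and 1984 negative, so the regulators' count is close to that of all genes. The 9 negative ones became 6 when centred on the hybridisation controls, where JUN, CEBPB and IRF1 turned positive and the median turned to 0.09. The median was also positive (0.06) over the 5 genes left at a floor of log2 7. With the lowess correction (-0.05) and with 16 units added before log2 (-0.08) the median stayed negative but lay slightly nearer 0. Some settings moved it further below 0. With a gene's probe sets averaged, 1 regulator was positive and 7 were negative, with a median of -0.24. At a floor of log2 5, 8 were positive and 15 negative (median -0.14). Without a floor, 9 were positive and 18 negative (median -0.16). The sign of the median thus depended on the setting. Among the 16 compared regulators, the largest difference was that of FOSB, an AP-1 subunit gene, at 36 on the CD2-positive and 64 on the CD2-negative array. FOSB reached the floor only on the CD2-negative array. FOSL2, another AP-1 subunit gene, went the other way at 108 and 74, and JUND did so at 631 and 515. The NF-kB feedback inhibitor genes TNFAIP3 (69 and 100) and NFKBIA (88 and 120) were lower in the CD2-positive subclone. So was IKBKG (66 and 86), a subunit of the IkB kinase, whereas its catalytic subunit gene IKBKB read 67 and 53. STAT5B, which acts downstream of KIT and cytokine receptors, read 86 and 67. Of the NF-kB subunits, RELA read 121 and 142 and NFKB1 104 and 120. These last 2 were chosen after their values were seen. No NF-kB gene compared was as far from 0 as CCL18 or CCL23. Those 2 members were picked with their differences known, so nothing is read from that contrast. The activity of NF-kB was not measured, and a link between the regulators and the chemokine differences was not tested.

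**Figure D4:**
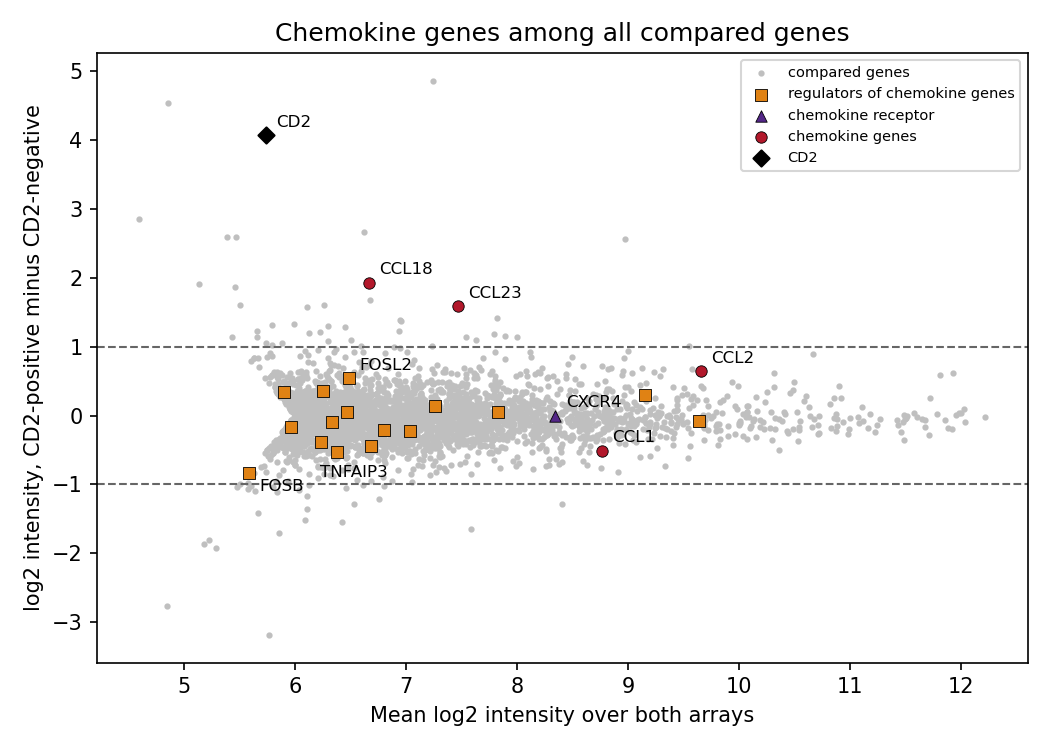
Log2 difference (CD2-positive minus CD2-negative) against mean log2 intensity for the 3564 compared genes (grey), with the 4 compared chemokine genes (red circles), 16 regulators (orange squares), CXCR4 (purple triangle) and CD2 (black diamond). Dashed lines mark 2-fold. CCL18 and CCL23 lie above the upper line, and the regulators all lie between the lines.

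Genes with the most similar pair of log2 intensities were found by Euclidean distance over the 2 arrays, a likeness of probe set readings and not of transcript amounts, which 2 samples leave very weak. The nearest to CCL18 were GPR65 (182 and 57, distance 0.18), ANXA2 (247 and 39, 0.52) and FCGR2B (199 and 76, 0.55). The nearest to CCL23 were ITGB1BP1 (0.33), PAG1 (0.41) and HSD17B4 (0.51). Those of CCL2 were PTGS1 at 995 and 652 (0.03), NCOA4 (0.12) and RFLNB (0.16), and those of CCL1 were MCL1 at 387 and 495 (0.11), UFC1 (0.13) and BLOC1S2 (0.14).

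The mast cell identity of both subclones was checked with 12 markers, of which 11 were measured and 8 compared. KIT, the stem cell factor receptor gene, read 1373 and 1328, and the tryptase gene TPSAB1, whose near-identical copies cannot be separated, 4806 and 3142. All 8 read higher on the CD2-positive array, the direction of CCL18, CCL23 and CCL2 and not that of CCL1. Of all 3564 compared genes, 1494 read higher. Of the 8 markers, 2 passed 2-fold higher, against 1.21% of all compared genes. The log2 differences ran from 0.05 for KIT and 0.14 for GATA2 to 2.56 for CPA3, a mast cell protease gene (1220 and 207). HPGDS, a prostaglandin synthase gene, read 187 and 80, and MITF, a mast cell transcription factor gene, 276 and 154. Below the floor, FCER1A read 27 and 8, CTSG 8 and 12, and CMA1 2 and 2. The summed readings of the 11 were 14210 and 9245, a sum set mostly by 2 tryptase probe sets that may read the same transcripts. The part of this shift in the chemokine differences was not tested. The 13 measured markers of monocytes, macrophages and dendritic cells, CD14, CSF1R and CD163 among them, were all at or below 4 on both arrays, with summed levels of 34 and 35. Whether other cell types contributed to the CCL18 and CCL23 readings was not tested. Of 6 measured eosinophil and basophil markers 4 were at or below 4. The exceptions were PRG2, the major basic protein gene, at 2213 and 1194, and SIGLEC8, which mast cells also express, at 63 and 32. EPX and CLC read 2 to 3. Markers of T and NK cells (9 of 11 measured) and B cells (2 of 3) were likewise at or below 4, and the others read at most 8. Over all genes, 7924 of 19775 were at or below 4 on both arrays.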

How the data were processed

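Gene expression was measured in 2 samples, 1 array for each subclone. The deposited values were probe-set intensities that the authors had normalised with RMA, and the submitters' processing notes name Affymetrix Expression Console 1.1. That the values are linear and rounded was read from the table itself. Quantile normalisation, a part of RMA, removes differences in total signal, and the details of the background correction, which set low values, and the genome build are not given in the sources.

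Here intensities were converted to log2 and subtracted (CD2-positive minus CD2-negative). Probe sets with 1 gene symbol (41097 of 54675) were named by the platform annotation and updated through Entrez identifiers to RefSeq symbols (41043 found). The 1801 with several symbols named no gene by themselves. No test was made with 1 array per group, and the number of arrays limits the precision. The size rule was tried on simulated data with a noise level set by hand. Changes were planted only in genes of a higher mean level than CCL18. That trial cannot show how the rule behaves under variation between cultures.

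The members, lists and rules were chosen with earlier results of these data known. The genes named were CD2, the 9 members, up to 8 genes above the floor per list by size of difference, the 3 nearest genes of each compared member, and neighbouring genes. Receptors, regulators, markers and cytokines named beyond that rule, those below the floor among them, were picked with their values known. As alternatives, other floors, folds, probe set choices and centrings, a lowess correction with a span of 0.3, and 16 units added before log2 were tried. Counting the shared CCL3 probe set and the other probe sets of CCL18 and CCL23 were added after seeing the data. Python 3.11.15, pandas 2.3.3, numpy 2.4.6 and statsmodels 0.14.6 were used.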

Additional observations from a re-analysis of the deposited data

How the results depend on the processing

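With 1 array per subclone no array could be left out. No paired analysis was possible because each group held 1 sample. Of members with their own probe set, CCL18 and CCL23 were the 2 called higher under every floor, centring and probe set choice tried. Of the same members 3 passed at 1.5-fold, and none was called lower under any setting. The probe set shared by CCL3, CCL3L1 and CCL3L3 is not in these counts. It passed 1.5-fold (1.82) and, when centred on the hybridisation controls, 2-fold (log2 difference 1.04). Without a floor 8 members were compared, not 4. Of the 4 compared members, values that moved by more than the SD of 0.13 between probe sets were those centred on the hybridisation controls (CCL18 2.11, CCL23 1.77, CCL2 0.83, CCL1 -0.33), those with 16 units added before log2 (CCL18 1.65, CCL23 1.45) and the other probe set of CCL18 (1.78). Below the floor, CCL5 (0.09) moved to 0.24 with its probe sets averaged. It moved to 0.42 with only identifiers that carry no _s, _x or _a, where a probe set marked _i stood for it. The remaining CCL5 probe set, with no such mark, differed by 0.22. With 16 units added, CCL4 (0.42) moved to 0.26 and CCL7 (0.32) to 0.07. Centring on the controls gave CCL4 0.60, CCL5 0.27, CCL7 0.50 and CXCL8 0.18. The spread of 0.13 lies within the arrays and is no replicate error.

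Counts over all genes were 43 higher and 27 lower of 3564 compared. They changed by over 1.5 times in several settings, partly because the number of genes compared changed. They were 77 and 48 of 6024 at a floor of log2 5, and 24 and 8 of 1800 at log2 7. Without a floor they were 307 and 380 of 19775. With a gene's probe sets averaged they were 26 and 13 of 1783. With only identifiers that carry no _s, _x or _a they were 25 and 12 of 1973. Of the same 3564 genes, 151 and 134 passed at 1.5-fold and 15 and 7 at 3-fold. On the hybridisation controls 71 and 14 passed. With 16 units added, 14 were lower. Without a floor, 2 other chemokine and 2 receptor genes at values of 1 to 4 passed 2-fold, where rounding alone can give that. Values near 4 depend on the background correction.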

Other observations

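Cytokine and growth factor genes of mast cells were looked at beside the chemokines, in a list of 30 genes written after the chemokine values were seen. Of 27 measured, 8 were compared, 6 with a positive and 2 with a negative difference, none of them 2-fold, and their median log2 difference was 0.18. Over all 3564 compared genes, 1494 were positive and 1984 negative, with 1.21% called higher and 0.758% lower. The largest difference was that of IL16, a T cell attractant gene, at 50 on the CD2-positive and 66 on the CD2-negative array. IL16 reached the floor only on the CD2-negative array. TGFB1, the transforming growth factor gene, read 111 and 86. MIF, the macrophage migration inhibitory factor gene, read 1247 and 1035. LIF, a cytokine gene of the interleukin 6 family, read 458 and 370, and VEGFA, the vascular growth factor gene, 432 and 415. CSF1, the macrophage growth factor gene, read 223 and 173. IL1RN, which encodes the interleukin 1 receptor antagonist, read 360 and 336, and TNFSF10, which encodes the death ligand TRAIL, 253 and 274. The cytokine genes IL4, IL5, IL6 and IL10 read 2 to 4, inside the range of the Bacillus control probe sets, and TNF read 6 on both arrays.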
